A study of Mus musculus with 8 samples.

Results

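Goblet cell genes were followed across sorted wild-type (WT) and cancer cells of mouse intestinal organoids. The genes were chosen by symbol from the read count table: Muc2, Tff3, Agr2, Clca1, Fcgbp, Spink4, Zg16 and Muc13. Of these 8 genes, 7 had a row among the 13420 genes of the table and 6 passed the filter on low counts, which left 5264 genes for testing. Clca1 had no row under that symbol, and Muc2 had a row but too few reads for the test. The study cultured WT and cancer organoid cells either alone ("pure") or as aggregates of 2 parts WT to 1 part cancer cells ("mixed"), and asked what each population does to the other. Live single cells were separated by their fluorescent protein 3 days after mixing and sequenced in bulk by CEL-Seq, a method that reads the 3' end of transcripts. Each of the 4 groups has 2 libraries, named here by their wells. Pure WT cells are in A01 and A05 and mixed WT cells in A02 and A06, while pure cancer cells are in A03 and A07 and mixed cancer cells in A04 and A08. The WT organoids carried the mTmG reporter, which gives membrane-bound tdTomato, on a C57BL/6 background and came per the methods from small intestine of mice aged 9 to 30 weeks that also carry an inducible Cre at the Rosa26 locus. The cancer organoids carried Villin-CreERT2, Apcfl/fl and Tr53fl/R172H on C57BL/6 (F6) and the fluorescent protein Dendra2. They came from male mice aged 7 to 16 weeks, and Villin drives the Cre in the intestinal epithelium. All organoids were grown in medium with EGF, Noggin and R-spondin1. Nothing in the labels says that the 2 libraries of a group come from separate cultures, so p-values measure the spread between these libraries, which may be technical.

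Goblet cells are the mucus-secreting cells of the intestinal epithelium. They arise from progenitors that escape Notch signaling and switch on the transcription factor Atoh1, and they mature under Spdef. Their product is a gel built from the polymeric mucin Muc2, which is folded in the endoplasmic reticulum with the help of Agr2, packed in granules and released together with Fcgbp, Clca1, Zg16, Tff3 and Spink4, while Muc13 stays anchored in the apical membrane.

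Levels are given as counts per 1e+06 reads (CPM), scaled by the trimmed mean of M-values (TMM), and are not divided by transcript length because only the 3' end was read. Depth ranged from 73109 reads in A02 to 4733121 reads in A04, a 64.7-fold span, and 26.1% of the tested genes had 0 reads in A02. Because of this, 3 reads over both libraries of a group, the upper limit that a count of 0 allows, correspond to 1.04 CPM for pure and 5.79 CPM for mixed WT cells, and to 5.72 CPM for pure and 0.566 CPM for mixed cancer cells. These limits and all intervals on ratios cover the counting error of reads only. Reads include amplification copies, which are treated as separate counts, so the intervals are too narrow for molecules. All libraries held epithelial keratin RNA, with Krt8 at 1292 CPM or more in each. Of the 12 blood and stroma markers listed, 4 had a row, and their summed reads came to at most 7.31 CPM in any library. Among the recombined genes, Apc was too low to test with 0 to 22 reads per library, and Trp53 was lower in pure cancer than pure WT cells (log2 fold change -2.56 ± 0.77, SE, adjusted p = 0.0323, edgeR). The 3' tags of these genes are not known to lie in the deleted parts, so they do not check the genotypes. The Wnt target Nkd1, at 0 to 13.1 CPM in WT libraries, was at 114 to 283 CPM in cancer libraries.

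The sequences before the starts of the goblet cell genes are shown because 5 of the tested genes were low together in cancer cells. RefSeq promoter entries (GRCm38.p6) were found for 4 of the 8 genes, and Muc13 has 2 starts. Of the 5 low genes, Tff3 and Zg16 had no entry. Muc2 had an entry but was not among these 5, so the windows do not describe that set. The 150 bases before the start are given 5' to 3' on the gene's strand, with capitals on matches to any of 4 motifs, read on both strands: TATAAA (a core promoter element), CAGNTG (E-box, the class bound by Atoh1), TTTATN (core of the CDX site) and AGATAA (bound by factors of the GATA family). The windows are chr7:141690190-141690339 (+) for Muc2, chr7:28071086-28071235 (+) for Fcgbp, chr12:35992775-35992924 (+) for Agr2 and chr16:33793887-33794036 (+) for the first start of Muc13.
Muc2: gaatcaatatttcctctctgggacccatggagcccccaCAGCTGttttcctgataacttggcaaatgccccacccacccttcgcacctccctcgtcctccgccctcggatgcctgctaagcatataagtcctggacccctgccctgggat
Fcgbp: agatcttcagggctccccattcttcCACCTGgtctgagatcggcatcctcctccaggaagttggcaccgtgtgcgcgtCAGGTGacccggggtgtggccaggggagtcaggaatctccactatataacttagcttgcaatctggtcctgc
Agr2: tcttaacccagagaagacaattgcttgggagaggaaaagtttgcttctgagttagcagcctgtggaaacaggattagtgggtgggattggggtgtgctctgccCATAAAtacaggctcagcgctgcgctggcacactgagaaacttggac
Muc13: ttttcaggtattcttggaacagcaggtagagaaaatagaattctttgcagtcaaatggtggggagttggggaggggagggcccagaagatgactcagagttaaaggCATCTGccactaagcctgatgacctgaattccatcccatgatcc
The E-box letters were in 3 of the 5 windows, those of Muc2, Fcgbp and the first start of Muc13, and in 30.1% of all 32851 mouse promoter windows of this length. The CDX core was in 1 of the 5, that of Agr2, and in 24.0% of all. The letters TATAAA, present in 7.57% of all windows, and AGATAA, in 5.65%, were in none of the 5. Other forms of the GATA site were not searched. A match is a description of the letters and not evidence of a bound site.

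The gel-forming mucin Muc2 (chr7:141690340-141754693, GRCm38) was sparsely read even in WT cells, with 10 and 23 reads in pure WT (9.15 and 12.9 CPM) and 0 and 6 reads in mixed WT (0 and 13.6 CPM). In cancer cells there were 0 and 0 reads in the pure libraries and 1 and 0 in the mixed ones. The Muc2 level was at least 2.01-fold lower in pure cancer than in pure WT cells against the limit of 3 reads, and the ratio of the mixed groups was 0.0163 (95% counting interval 0.000354 to 0.134). The pure groups did not overlap, the mixed groups did because A02 had 0 reads, and Muc2 was not in the main fit. The alternatives without a filter and with DESeq2 did fit it, and both called 5 of 7 members in each comparison of cancer with WT cells. Muc2 was not among these 5.

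Fcgbp (chr7:28071236-28120862), a large mucus protein that is linked to the Muc2 network, was read at 117 and 160 CPM in pure WT and 118 and 134 CPM in mixed WT cells. Pure cancer libraries had 0 reads, A04 had 4 reads (0.783 CPM) and A08 had 0. Every WT library held at least 9 reads and, of the cancer libraries, only A04 held any. Fcgbp was at least 25.1-fold lower in pure cancer than pure WT cells (adjusted p = 0.000107, edgeR quasi-likelihood test with Benjamini-Hochberg adjustment, as for all tests below) and 174-fold lower in mixed cancer than mixed WT cells (95% counting interval 65.0 to 658, adjusted p = 1.94e-05). Pooled values of mixed cancer cells are mostly those of the deep A04. Leaving A04 out, an alternative added after seeing the data, left 0 Fcgbp reads in mixed cancer cells and a level at least 8.44-fold lower (adjusted p = 0.0112, edgeR). In bulk samples such as these, fewer goblet cells and less RNA per goblet cell cannot be told apart. Of the windows of 50 bases at the 3' end of Fcgbp, 34.15% also occur in the related gene 9530053A07Rik. Per the methods, reads with equally good matches at several places were dropped, so reads within these windows could be missing from the count. None of the other members shares such windows with another gene.

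Zg16 (chr7:127050156-127087328), a secreted lectin-like protein that binds bacteria in the mucus, was read at 179 and 67.5 CPM in pure WT and 564 and 213 CPM in mixed WT cells. Among cancer libraries, only A04 had a read, a single read. Zg16 was at least 19.2-fold lower in pure cancer than in pure WT cells (adjusted p = 0.00025, edgeR), and the ratio of mixed cancer to mixed WT cells was 0.000713 (95% counting interval 1.8e-05 to 0.00404, adjusted p = 1.17e-06, edgeR). Without A04 it was at least 17.01-fold lower in mixed cancer cells.

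Clca1, the secreted protease of the mucus that cuts Muc2, is absent by symbol, but RefSeq lists Clca3 as an older symbol of Clca1 and of no other mouse gene, and the table has a row Clca3 on chromosome 3, where Clca1 lies (chr3:145003817-145032776). That row is described here beside the members and is not counted among them. It held 9 and 8 reads in pure and 3 and 12 in mixed WT libraries, 0 and 0 in pure cancer, and 1 and 0 in mixed cancer libraries. All WT libraries were above all cancer libraries, at counts too low for the test. RefSeq also lists Clca2 as an older symbol of Clca1. The row Clca2 held 2 and 1 reads in pure WT, 3 and 0 in mixed cancer, and 0 in mixed WT and pure cancer libraries. Which gene that row stands for was not tested. The related row Clca4 was at 250 and 394 CPM in pure and 26.2 and 27.2 CPM in mixed WT libraries, and had 4 reads in A04 (0.783 CPM) and 0 in the other cancer libraries.

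**Figure D1:**
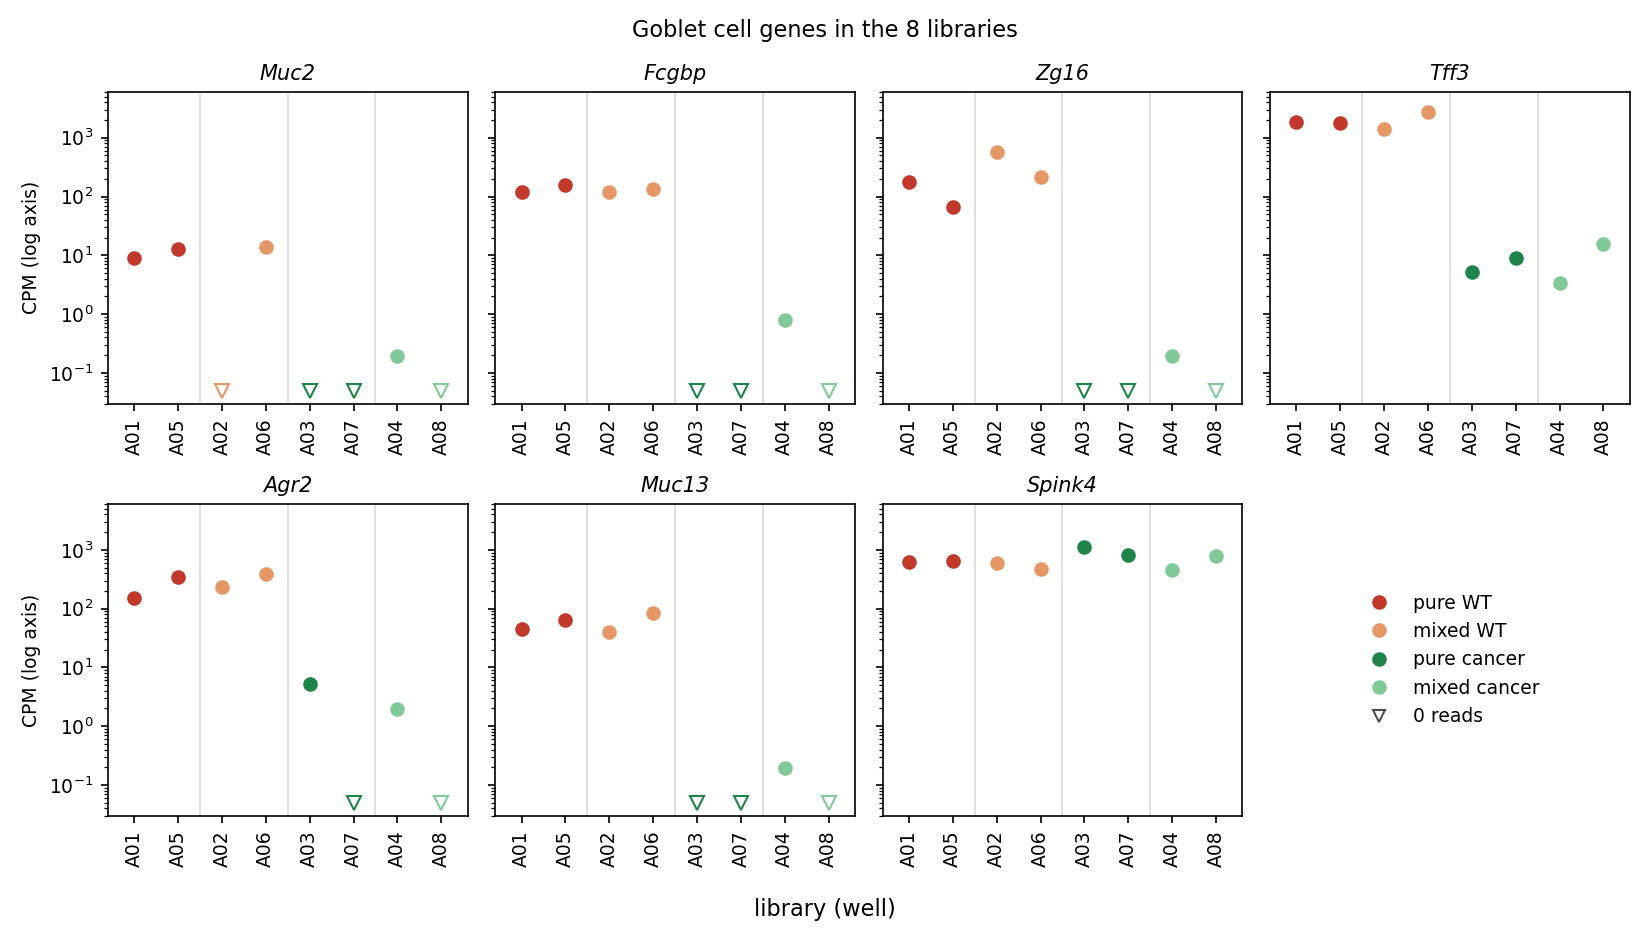
CPM of the 7 goblet cell genes with a row, in each of the 8 libraries (log axis, 1 point per library, open triangles for 0 reads). Spink4 lies between 449 and 1102 CPM in every library, whereas Tff3 is at or above 1403 CPM in WT libraries and at or below 15.6 CPM in cancer libraries.

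Tff3 (chr17:31125306-31129646), the trefoil peptide that goblet cells secrete and that aids epithelial repair, took more reads than any other member in each WT library. It was read at 1883 and 1798 CPM in pure and 1403 and 2730 CPM in mixed WT cells, against 5.25 and 8.98 CPM in pure and 3.33 and 15.6 CPM in mixed cancer cells. The cancer values rest on 1, 3, 17 and 3 reads. The lowest WT library was far above the highest cancer library, and the fitted log2 fold changes were -7.91 ± 0.71 (SE, adjusted p = 9.3e-08, edgeR) in pure and -8.77 ± 0.71 (adjusted p = 1.23e-08) in mixed cells. As ratios of pooled CPM, Tff3 was 240-fold lower (95% counting interval 93.7 to 881) and 672-fold lower (433 to 1104). The latter moved to 163-fold (55.6 to 791) without A04, on the 3 reads of A08 (adjusted p = 7.2e-08, edgeR). With a molecule barcode of 4 bases, at most 256 molecules of a gene can be told apart in a library, and Tff3 had 249 and 251 different barcodes in the pure WT libraries, so barcode counts understate it there.

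Agr2 (chr12:35992907-36004087), the disulfide isomerase that mucin folding needs, was read at 151 and 351 CPM in pure WT and 236 and 394 CPM in mixed WT cells. Among the cancer libraries it had 1 read in A03 (5.25 CPM), 10 reads in A04 (1.96 CPM), and 0 in A07 and A08. Again no cancer library reached any WT library. The ratio of pure cancer to pure WT cells was 0.00693 (95% counting interval 0.000175 to 0.0387, adjusted p = 3.67e-05, edgeR), and Agr2 was 197-fold lower in mixed cancer than mixed WT cells (105 to 417, adjusted p = 1.91e-06). All 10 of these reads were in A04, and without it Agr2 was at least 23.8-fold lower (adjusted p = 0.000369, edgeR).

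Muc13 (chr16:33794037-33819934), a transmembrane mucin that enterocytes carry as well as goblet cells, was read at 44.8 and 65.2 CPM in pure WT and 39.3 and 83.8 CPM in mixed WT cells. Pure cancer libraries had 0 reads, and mixed cancer libraries 1 and 0. The level was at least 10.1-fold lower in pure cancer cells (adjusted p = 0.00387, edgeR), and the ratio in mixed cells was 0.00244 (95% counting interval 6e-05 to 0.0144, adjusted p = 0.000228, edgeR). The call in mixed cells rests on the deeply read A04: without it, mixed cancer cells had 0 reads, the level was at least 4.97-fold lower and the adjusted p was 0.0798 (edgeR).

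Spink4 (chr4:40920052-40931395), a Kazal-type protease inhibitor secreted by goblet cells, did not follow the other members. It was read at 620.5 and 645 CPM in pure and 590 and 469 CPM in mixed WT cells, and at 1102 and 805 CPM in pure and 449 and 783 CPM in mixed cancer cells. Both pure cancer libraries were above both pure WT libraries, while the mixed groups overlapped. The log2 fold change was 0.59 ± 0.43 (SE, 95% interval -0.29 to 1.47, adjusted p = 0.483, edgeR) in pure and 0.22 ± 0.44 (-0.69 to 1.12, adjusted p = 0.881) in mixed cells, so neither difference was called. The ratio of pooled CPM was 0.948 in mixed cells and 1.61 without A04 (95% counting interval 1.31 to 1.98), so the direction of the pooled ratio rests on that library. By mean CPM, mixed cancer cells were at 616 and mixed WT cells at 529. The Spink4 reads did not come from few molecules: pure cancer libraries held 112 and 126 different barcodes, A04 held 253 of the 256 possible and A08 held 90.

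In pure cancer against pure WT cells, 5 of the 6 tested members were called lower (Fcgbp, Zg16, Tff3, Agr2 and Muc13), 1 was not called and none was called higher, where 4.84% of all tested genes were called lower and 5.11% higher. In mixed cancer against mixed WT cells the calls fell on the same 5 genes, where 4.41% of all tested genes were called lower and 2.01% higher. These 5 genes passed the filter on low counts through their reads in WT libraries alone, so their count and median describe the tested members and support nothing further. The median log2 fold change of the 6 was -4.46 in pure cells with genes at 0 reads set to their limit, and -7.62 in mixed cells, beside -0.05 and 0.12 over all tested genes.

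**Figure D2:**
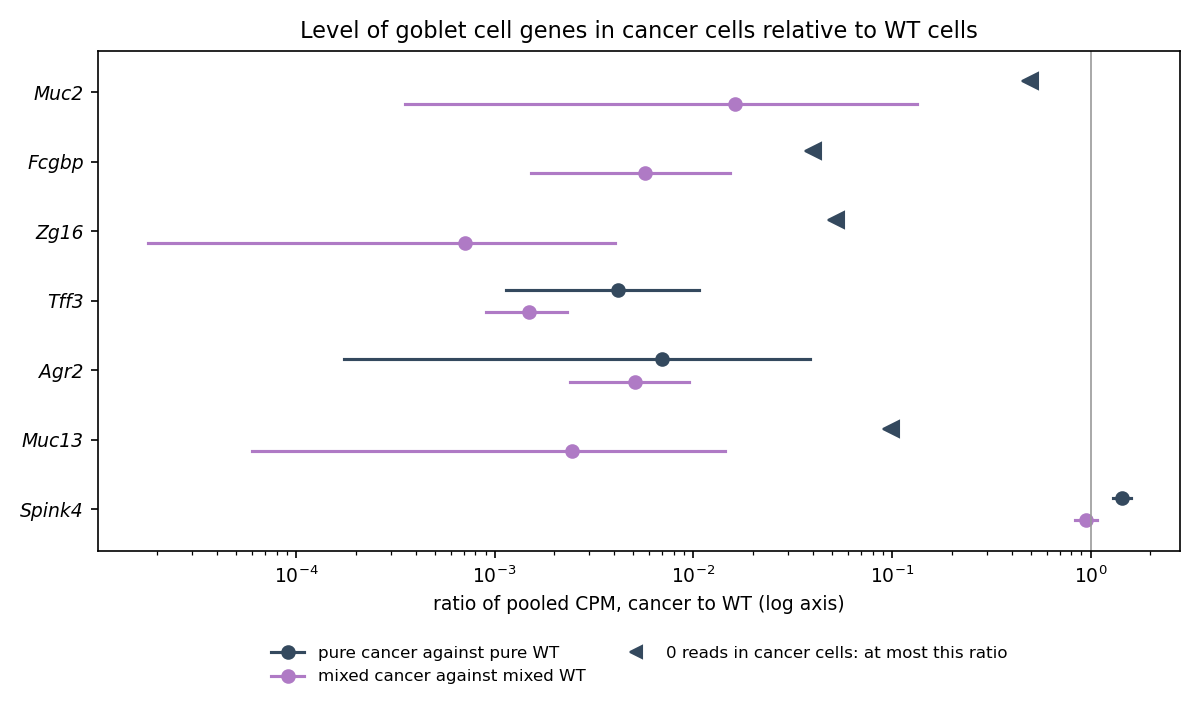
Ratio of pooled CPM in cancer to WT cells for the 7 genes with a row (log axis), dark for pure and light purple for mixed cells, with bars for the 95% counting interval and triangles for the highest ratio that 0 reads allow. Spink4 sits at 1.44 and 0.948, the latter set by the deep A04, and the other points lie at 0.0163 or below for mixed cells and, as ratios or limits, below 1 for pure cells.

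Spink4 was the only member above 15.6 CPM in a cancer library, and the make-up of the goblet gene reads turned over. Tff3 made up 62.7% and 58.0% of the reads of the 7 genes in the pure and 47.6% and 67.6% in mixed WT libraries, with Spink4 at 20.7%, 20.8%, 20.0% and 11.6%. In cancer libraries Spink4 made up 99.1% and 98.9% of these reads in pure, and 98.5% and 98.1% in mixed cells. Without Spink4, the other 6 genes summed to 2383 and 2455 CPM in pure and 2359 and 3568 CPM in mixed WT libraries, but to 10.5 and 8.98 CPM in pure and 6.65 and 15.6 CPM in mixed cancer libraries. The cancer sums rest on 2, 3, 34 and 3 reads.

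**Figure D3:**
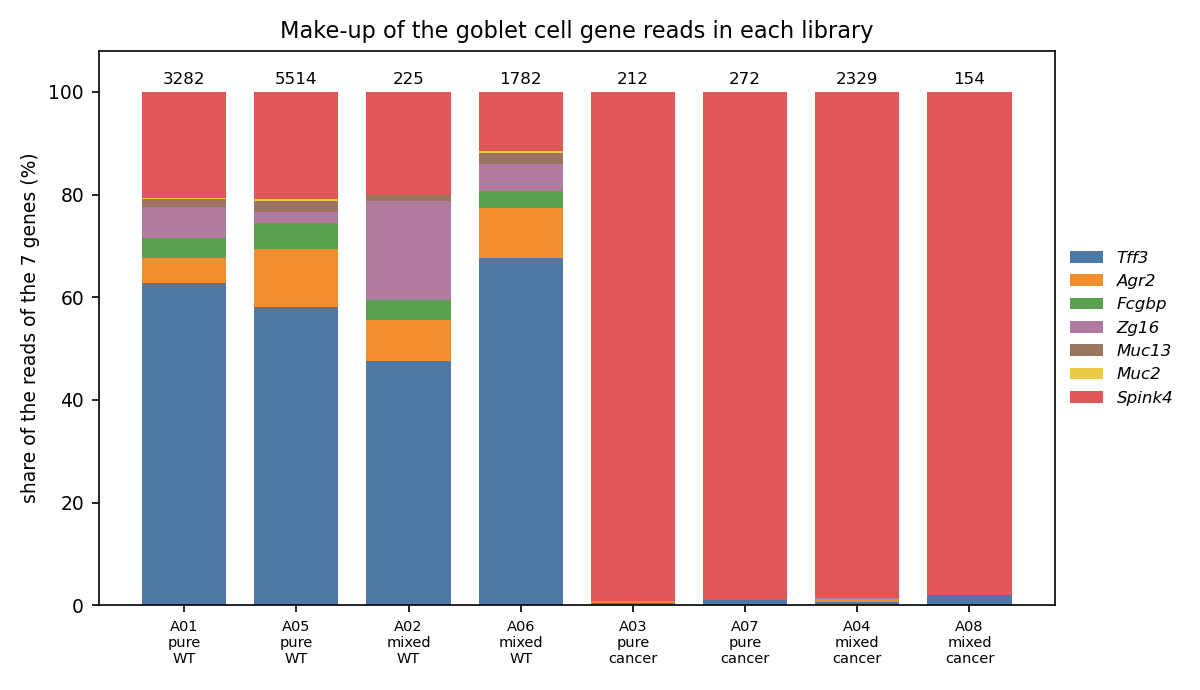
Share of the reads of the 7 goblet cell genes that each gene holds in each library (percent, stacked bars, number of reads above each bar). Tff3 is the widest band in the 4 WT libraries, and Spink4 fills at least 98.1% of each cancer library.

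Mixing with cancer cells left the tested goblet members of WT cells without a called change. The number of members called in mixed against pure WT cells was 0 of 6, beside 0.741% of all tested genes called in either direction, and DESeq2 also called 0. At an unadjusted p under 0.05 there were 509 of all 5264 tested genes and 1 member, Zg16, with both mixed libraries (564 and 213 CPM) above both pure ones (179 and 67.5 CPM) and a log2 fold change of 1.60 ± 0.61 (SE, 95% interval 0.34 to 2.87, adjusted p = 0.336, edgeR). Spink4 was lower in both mixed libraries, with a log2 fold change of -0.27 ± 0.43 (-1.17 to 0.63, adjusted p = 0.907). Groups did not overlap for these 2 of 6 members, beside 43.8% of all tested genes. For Tff3, Agr2, Fcgbp and Muc13 the log2 fold changes were 0.18, 0.36, -0.12 and 0.28, with standard errors of 0.45, 0.55, 0.61 and 0.76 and adjusted p from 0.899 to 0.98 (edgeR). Their 95% intervals ran together from -1.39 to 1.85, and changes within these intervals were not detectable with 2 libraries a group, among them the shallow A02. The untested row Clca3 was at 8.24 and 4.50 CPM in pure and 39.3 and 27.2 CPM in mixed WT libraries.

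Nor did mixing with WT cells give a call among the goblet genes of cancer cells: 0 of 6 members, beside 0% of all tested genes, with 69 of all tested genes and 0 members at an unadjusted p under 0.05 and also 0 calls among the members by DESeq2. Spink4 was lower in both mixed libraries (449 and 783 CPM against 1102 and 805 CPM), with a log2 fold change of -0.64 ± 0.43 (SE, 95% interval -1.53 to 0.25, adjusted p = 1, edgeR). Tff3 had 20 reads in the mixed and 4 in the pure group, a log2 fold change of -0.68 ± 0.93. The sign is that of A04 (3.33 CPM), while A08 (15.6 CPM) was above both pure libraries (5.25 and 8.98 CPM), and without A04 the log2 fold change was 1.04 ± 1.05. The levels of the remaining members in cancer cells rest on at most 10 reads a group. The deep library A04 held cancer cells sorted from mixtures. Its reads were 17 for Tff3, 10 for Agr2, 4 for Fcgbp, and 1 each for Muc2, Zg16, Muc13 and Clca3. Whether these few reads came from cancer cells or from WT cells of the mixture was not tested. The change upon mixing did not differ detectably between WT and cancer cells for any member (0 of 6 called, beside 0.076% of all tested genes, adjusted p from 0.896 to 0.981, edgeR).

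A list of other goblet cell genes was read beside the members. Of 30 genes, 28 had a row and 14 were tested, with 6 called lower and 2 higher in pure cancer cells, 4 lower and 3 higher in mixed ones, and a median log2 fold change of -1.86 and -0.96 with genes at 0 reads set to their limit. Itln1, a lectin of goblet and Paneth cells, fell from 1168 and 2073 CPM in pure WT to 26.2 and 5.99 CPM in pure cancer cells (log2 fold change -6.83 ± 0.66, SE, adjusted p = 2.32e-07, edgeR). Guca2a, the peptide hormone guanylin, was at 273 and 262 CPM in pure WT and had 0 reads in pure cancer cells, at least 46.5-fold lower (adjusted p = 1.04e-05, edgeR). Ang4, an antimicrobial ribonuclease, and Oit1 were also lower in both comparisons. Named after their values were seen, the remaining calls are Slc12a8 and the regulator Atoh1, lower in pure cells, and Atp2c2, higher in mixed cells. Itln1, Ang4, Tff1, Tff2 and Atoh1 are also on lists given below, and their calls are counted there again.

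The trefoil factors split. Tff1 and Tff2, the trefoil peptides of the gastric mucosa, moved opposite to Tff3. Tff1 was at 84.2 and 64.6 CPM in pure and 91.8 and 233 CPM in mixed WT cells, and at 1564 and 1245 CPM in pure and 1211 and 866 CPM in mixed cancer cells. Every cancer library was above every WT library (log2 fold change 4.24 ± 0.50, SE, adjusted p = 3.81e-06 in pure and 2.56 ± 0.49, adjusted p = 0.00106 in mixed cells, edgeR). Tff2 was at 0 to 4.53 CPM in the 4 WT libraries and at 94.5, 311, 111 and 290 CPM in A03, A07, A04 and A08 (adjusted p = 1.1e-05 in pure and 0.000683 in mixed cells, edgeR). Other gastric markers did not all go this way. In pure cancer cells, of 5 tested gastric surface and neck cell genes, 3 were called higher (Tff1, Tff2 and Ctse) and 1 lower (Anxa10), and in mixed ones 2 were called higher (Tff1 and Tff2) and 2 lower (Anxa10 and Gkn3). Both Ctse and Anxa10 were also higher in mixed than in pure WT cells.

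**Figure D4:**
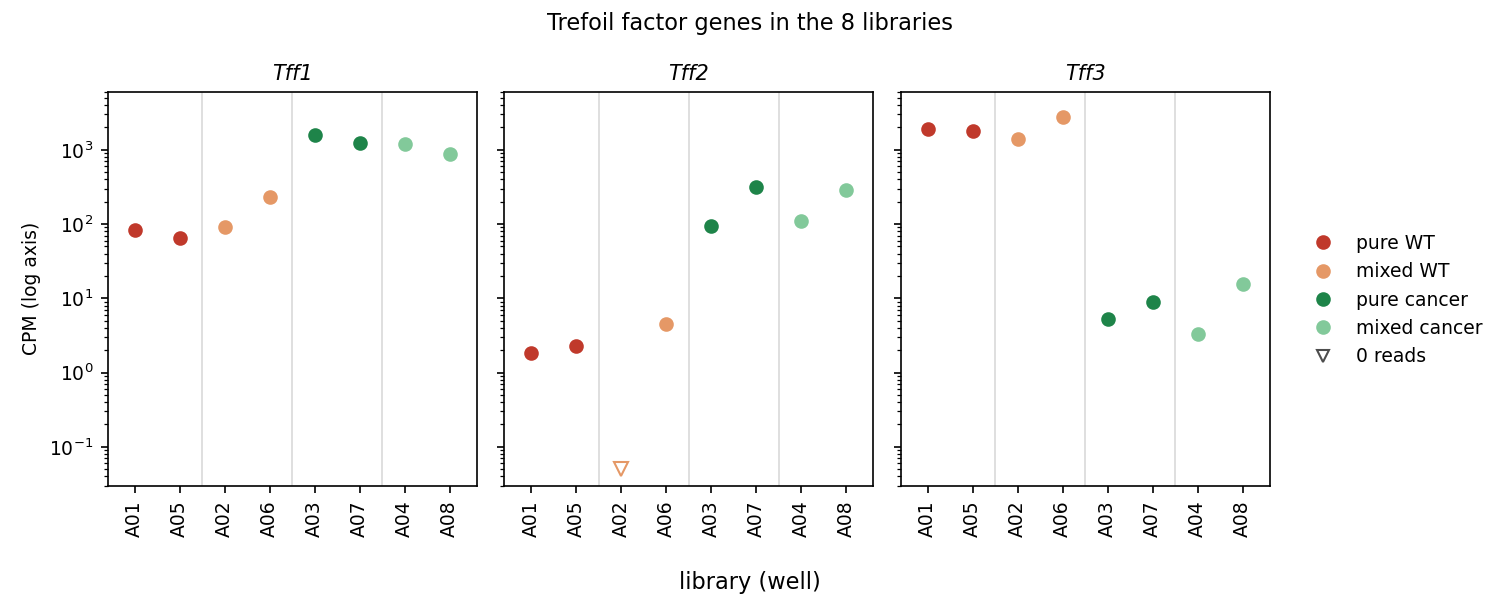
CPM of the trefoil factor genes Tff1, Tff2 and Tff3 in each of the 8 libraries (log axis, 1 point per library, open triangle for 0 reads). Tff1 and Tff2 are higher and Tff3 is lower in all 4 cancer libraries than in any WT library.

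Regulators of the goblet fate were sparsely read. Atoh1, the factor that commits progenitors to secretory fates, had 30 and 55 reads in pure WT (27.5 and 30.9 CPM). It had 1 and 2 reads in mixed WT (13.1 and 4.53 CPM) and 0 in all 4 cancer libraries. Its level was at least 5.18-fold lower in pure cancer than pure WT cells (adjusted p = 0.0488, edgeR), and the difference between mixed groups was not called (adjusted p = 0.0996). Spdef, which drives goblet maturation, was not tested. It had 15 and 13 reads in pure WT (13.7 and 7.31 CPM) and 0 and 1 in mixed WT (0 and 2.27 CPM). Pure cancer libraries had 2 and 1 reads (10.5 and 2.99 CPM), and mixed ones 6 and 0 (1.17 and 0 CPM). Of 13 such regulators, all had a row and 6 were tested, with 1 called lower in pure and 0 called in mixed cancer cells. The secretory stress factor Xbp1 was among those not called, at 294 and 352 CPM in pure WT and 593 and 691 CPM in pure cancer cells (log2 fold change 0.99 ± 0.52, SE, adjusted p = 0.296, edgeR).

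Genes of the machinery that makes and releases mucin were read as 3 lists. Of 26 enzymes that build mucin O-glycans, 23 had a row and 12 were tested. In pure cancer cells 1 was called lower (the sialyltransferase St6galnac2) and 1 higher (Galnt3, which starts O-glycan chains), and in mixed ones 3 were called lower (St6galnac2, St3gal4 and Galnt6), with median log2 fold changes of -0.20 and -0.58. St6galnac2 was at 34.8 and 41.0 CPM in pure WT and had 0 reads in pure cancer cells, at least 6.76-fold lower (adjusted p = 0.0211, edgeR). Of 17 protein folding genes of the endoplasmic reticulum, 16 were tested, with median log2 fold changes of 0.35 and 0.56. The only call was Ero1l, the oxidase that recharges disulfide isomerases, higher in pure cancer cells (63.1 and 39.9 CPM in pure WT, 572 and 476 CPM in pure cancer, log2 fold change 3.35 ± 0.50, SE, adjusted p = 6.78e-05, edgeR). Ero1l was also higher in mixed than pure WT cells, at 315 and 218 CPM (2.33 ± 0.50, adjusted p = 0.0284, edgeR). Of 12 granule exocytosis genes, 4 were tested and 1, the syntaxin-binding protein Stxbp2, was called higher in pure cancer cells, none in mixed ones. Mucins other than the members (3 of 12 with a row) were too low to test, with a summed level of at most 16.8 CPM in any library.

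Genes of other intestinal cell types also differed between cancer and WT cells, in a direction that varied with the list, and their part in the goblet results was not tested. As for the goblet genes, genes read in WT libraries alone passed the filter through those libraries, so their counts are a description. All 8 tested enteroendocrine genes of 14 listed were called lower in pure and 7 in mixed cancer cells, and their summed level was 742 to 1365 CPM in pure WT, while the pure cancer libraries held a single read, of Reg4, over all 14 genes. Of 7 tested enterocyte genes, 6 were called lower in each comparison, with the summed level at 771 to 1413 CPM in pure WT and 8.98 to 21.0 CPM in pure cancer cells. Of 6 tested Paneth genes, 4 were called lower and 2 higher in pure cancer cells, among them the lysozyme gene Lyz1 (538 and 1375 CPM in pure WT, 15.7 and 2.99 CPM in pure cancer) and the protease gene Mmp7 (128 and 77.6 CPM against 478 and 829 CPM). The lower calls include Itln1 and Ang4, already counted among the other goblet cell genes. Stem cell genes gave 2 lower calls of 8 in pure, and 1 lower and 1 higher in mixed cancer cells. Both tested tuft cell genes, Avil and Ptgs1, were called higher in pure cancer cells, 1 of them in mixed ones, while the defining tuft gene Dclk1 had 2 and 1 reads in pure WT and 0 in all other libraries. Among 10 general epithelial genes, the intestinal transcription factors Cdx1 and Hnf4a were called lower in pure cancer cells: Cdx1 was at 276 and 268 CPM in pure WT and had 0 reads in pure cancer cells, and Hnf4a went from 321 and 332 CPM to 47.2 and 35.9 CPM. In mixed cancer cells 5 of the 10 were called lower.

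**Figure D5:**
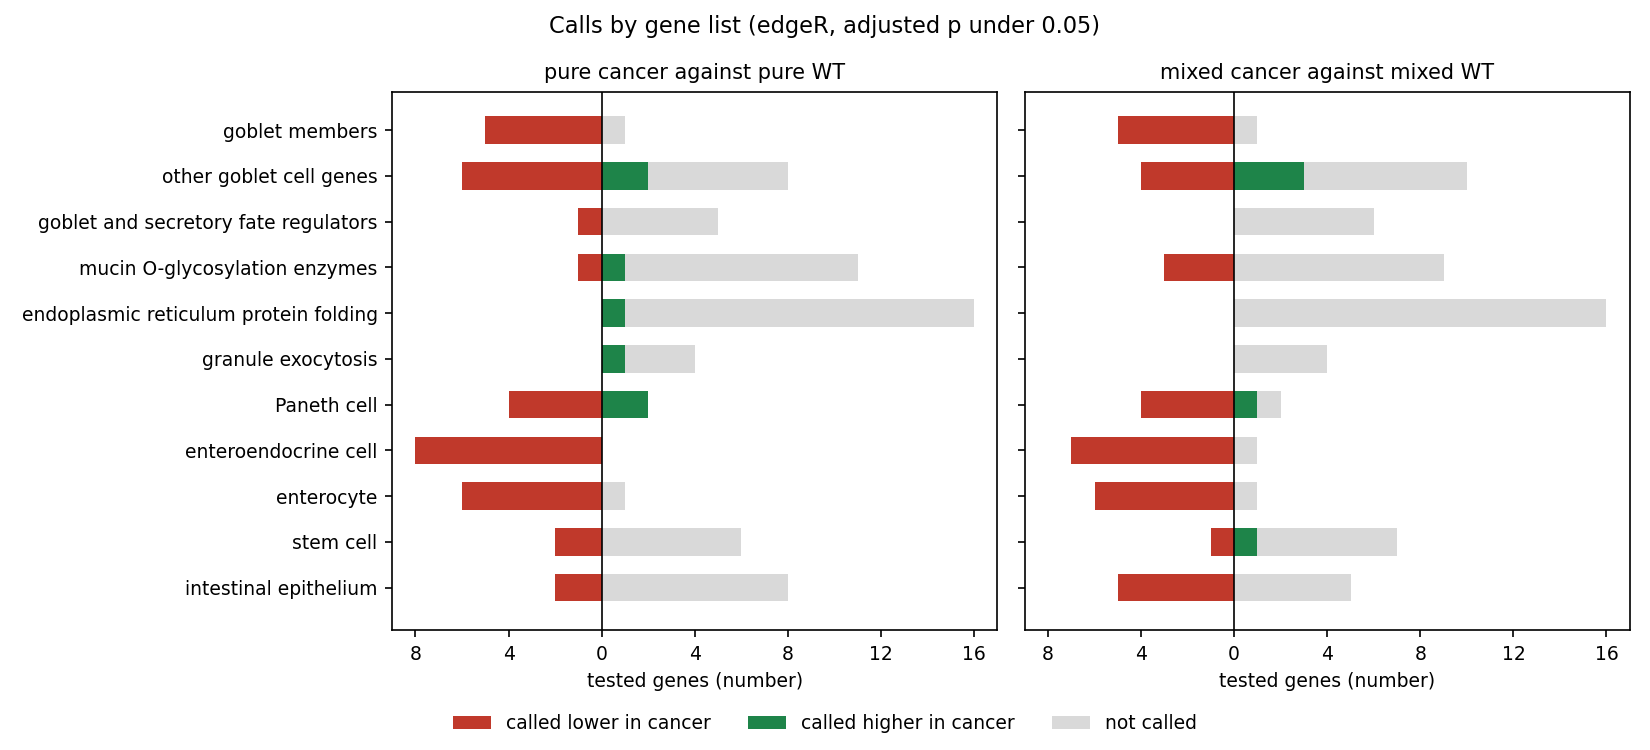
Number of tested genes per list called lower (left of 0), called higher or not called (right of 0) in cancer against WT cells, pure cells in the left and mixed cells in the right panel. The 6 goblet members have 5 lower calls in each panel, and the 16 protein folding genes have 1 call, a higher one, in pure cells.

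By Pearson correlation of log2 CPM over the 8 libraries, the genes with a pattern most like Muc2 were Fkbp1a (r = 0.971), Vdr (0.962), Tspan15 (0.954), Ndufa3 (0.953) and Mrpl15 (0.943), among the 2745 tested genes that averaged 50 reads or more. Tff3 ranked 132 (r = 0.786), Fcgbp 141, Agr2 149, Zg16 365 and Spink4 2332 (r = -0.419). The libraries share their depth differences, and Muc2 rests on few reads, 0 of them in A02: without A02, none of these 5 genes remained among the first 5, Fcgbp ranked 4 and Tff3 19. Around Tff3, ranked after its values were seen, the closest genes were Lgals4 (r = 0.995), Atp1b1, Reg4, Myo1a and Myo7b. Fcgbp was at rank 11, Zg16 at 35, Agr2 at 42 and Spink4 at 2042 of 2744. Tff3 differs mainly between WT and cancer libraries, so these ranks largely restate that difference and are no separate support.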

How the data were processed

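Bulk CEL-Seq data of 8 libraries were used. The authors aligned reads to mm10 with BWA and assigned them with featureCounts, and deposited read counts per gene without normalization, which include amplification copies. The authors also deposited barcode counts (different molecule barcodes per gene, at most 256), used as an alternative, and estimated counts of transcripts made from them, which entered no fit. Their table from DESeq2 for WT cells, mixed against pure (mean normalized signal, log2 fold change and error, a Wald score, p-value) was not used.

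Read counts of all 8 libraries entered a single fit with edgeR 4.0.16 in R 4.3.3: filterByExpr at a minimum count of 10, TMM factors and the quasi-likelihood F test. A gene was called when its adjusted p was below 0.05 (Benjamini-Hochberg over 5264 genes). Standard errors are the absolute log2 fold change over the square root of F. Ratios use pooled reads with exact 95% counting intervals, and 0 reads are set to 3. The same code was tested on simulated data with the real library sizes. The members and gene lists were chosen with earlier results of these data known. Genes outside the members were named when called, at most 4 per list and comparison, or when set beside a member. Alternatives were barcode counts, median-of-ratios factors, no filter, a minimum count of 50, a fit of the 4 compared libraries alone, leaving out each library, and DESeq2 1.42.0. Positions came from GENCODE vM21 and promoters from RefSeq, both on GRCm38, the build the authors used. A further allele of the cancer organoids is not reported here.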

Additional observations from a re-analysis of the deposited data

How the results depend on the processing

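The number of members called was 5 in both comparisons of cancer with WT cells in every alternative except a minimum count of 50, which left 4 because Muc13 was no longer tested, and, in mixed cells, leaving out A04, which also gave 4. It was 0 for mixing in WT cells, in cancer cells and for their difference under every alternative that could be fitted (a fit of 4 libraries gives no difference between the changes). Uncalled changes turned sign in places, and the cause was not tested. With barcode counts, Spink4 was at -0.23 in mixed cancer against mixed WT cells and at 0.66 in mixed against pure WT cells, and Tff3 at 0.069 in mixed against pure cancer cells (log2). Leaving out each library in turn gave -0.18 to 0.54 for Spink4 in mixed cancer against mixed WT cells. For mixed against pure WT cells these ranges were -0.48 to 0.53 for Tff3, -0.18 to 1.12 for Agr2, -0.32 to 0.15 for Fcgbp and -0.58 to 0.57 for Muc13. Tff3 ranged from -1.09 to 1.04 in mixed against pure cancer cells, and the difference between the mixing changes from -0.86 to 1.24 for Tff3 and from -0.000228 to 0.70 for Spink4. Other alternatives went beyond these ranges. Over all alternatives, Tff3 reached 1.57 in mixed against pure WT cells. The difference between the mixing changes reached 1.5 for Tff3 and 1.49 for Spink4. Median-of-ratios factors moved the median of all tested genes by at most 0.11, in the difference between the changes. Zg16 kept its sign in mixed against pure WT cells, from 0.75 to 2.50 with adjusted p from 0.0504 to 1 (edgeR or DESeq2). Of the 5 genes most like Muc2, 3 remained at a prior count of 10 and 0 without A02. Fits that leave out 1 of the 2 libraries of a group assume that the lone library varies like the others. No pairs of libraries were formed, since the labels give no shared replicate numbers. Depth limits the goblet genes in cancer cells, where 3 reads are worth 5.72 CPM in the pure group.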
